A study of Homo sapiens with 9 samples.

Results

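HCT116, a human colorectal carcinoma line, was compared here with itself across S phase, with 1 sequenced library taken against the mean of the other 2 from the same set. HCT116 accounts for 3 of the 9 libraries of the series, labelled early S, mid S and late S, and the remaining 6 are 2 sets of the same fractions from RPE1, a line of retinal pigment epithelial cells. No treatment or genetic change is named for either line, and each HCT116 fraction was sequenced once, with replicate number 2 on mid and late S and no number on early S. Growing cells of both lines had been given EdU, a thymidine analogue that is built into DNA as it is copied, and were sorted into the fractions before the EdU-carrying DNA was pulled down and sequenced.

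The comparison was meant to set mid S against the mean of early and late S. The HCT116 table carries no header, and neither the table nor the labels state which count column holds which fraction. Reading columns 4, 5 and 6 of that table as early, mid and late would rest only on the order in which the samples are listed, so no column was given a fraction. By position they are referred to as libraries A, B and C, and the measurements below are those of the middle column, B, against the outer columns, A and C. Whether B is the mid S library was not tested. The contrast of a 50 kb window is log2 of B minus log2 of the mean of A and C, after each library was scaled to an equal total and 1 was added. Of 57633 windows on the 22 autosomes, 53686 had enough reads in all 3 sets and were kept, and 16 windows were dropped for low HCT116 reads alone.

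As background, the genome is copied in a set order during S phase. Large domains that are rich in active genes are generally copied early, and compact, gene-poor domains late. Between them lie transition regions that are passed by forks from the early side, and some domains have origins that fire in the middle of S phase. In an assay that sorts cells into fractions, each stretch of DNA is therefore expected to be spread over neighbouring fractions, since the gates and the pulse both have width.

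The HCT116 libraries held 8604034, 12276325 and 6639310 reads in A, B and C, so B was the deepest, and the RPE1 libraries held between 6170299 and 22930078. A kept window had a median of 126 reads in A, 209 in B and 77 in C. The contrast from the odd 1 kb bins of a window correlated with that from its even bins at r = 0.926 over windows, which are not independent replicates, and only 1 window was called in opposite directions by them. The difference between odd and even bins put the SD of a window's contrast at 0.14. With 1 library per column no p-value was computed, and windows and regions are described by their size. Intervals on summed reads are exact (Clopper-Pearson, 95%) and cover counting error only.

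Library B was neither evenly mixed with the others nor as concentrated as they were. Its contrast ran from -1.15 at the 5th percentile to 1.09 at the 95th, with a median of -0.03 and an SD of 0.72. B was at least 1.5-fold above the outer columns in 14112 windows, or 26.3%, and at least 1.5-fold below in 13432, or 25.0%. The place of 0 depends on the scaling. With libraries scaled to equal medians the median contrast fell by 0.35 on the log2 scale, and the shares became 10.5% above and 41.4% below. The fall was not equal everywhere. At 21600001 to 31100000 on chromosome 5, where C held most reads, the mean contrast went from -1.15 to -1.60. At 94350001 to 95400000 on chromosome 1, where A held most, it went from -0.94 to -1.23, so the gap between these regions also moved. The order of the windows changed little (Spearman's rho 0.997 between the scalings over windows), so how windows rank is less open to this choice than the sign of their contrast. Values crowded on either side of 0, with 5.01% of windows between -0.5 and -0.4, 4.65% between 0.8 and 0.9, and 3.69% between 0.1 and 0.2.

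**Figure D1:**
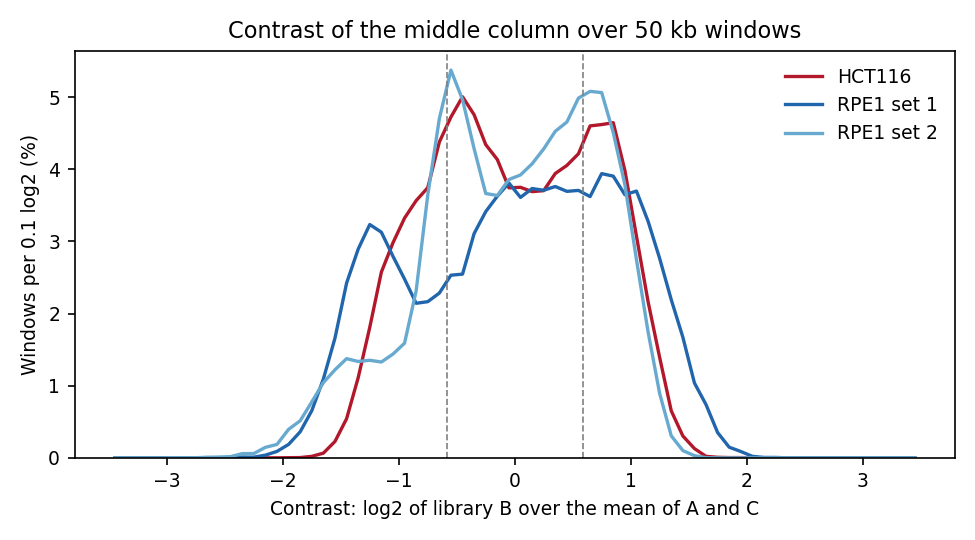
Share of 50 kb autosomal windows in steps of 0.1 of the contrast (x axis, log2 of library B over the mean of A and C, libraries scaled to equal totals) for HCT116 and the RPE1 sets, with dashed lines at the 1.5-fold rule. HCT116 has a crowded zone on each side of 0, and its low side ends sooner than that of either RPE1 set, with 5th percentiles of -1.15, -1.46 and -1.46.

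Each library led in about as many windows as the others, with 18061 led by A, 17592 by B and 18033 by C. B led with less of the reads. It held at least 50% of the scaled reads of a window in 4282 windows, or 7.98%, against 22.3% for A and 25.5% for C. From the 1st to the 99th percentile, the share of B ran from 15.9 to 55.6%, that of A from 13.5 to 63.4% and that of C from 11.7 to 67.6%. B thus had the narrowest range of the HCT116 libraries. It also had the narrowest range in each RPE1 set, where it ran from 12.9 to 61.1% and from 11.9 to 54.0%. Taken against the mean of the others by the same rule, A was high in 31.7% and low in 40.4% of HCT116 windows, and C was high in 30.8% and low in 54.8%.

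B was highest where A and C were about level. Windows were ranked by the ratio of A to C and divided into 10 equal classes. At the C end, where C held 63.5% of reads, B held 20.9%. The share of B rose through 28.8% in the third class and 40.1% in the fourth to 47.4% in the fifth and 46.5% in the sixth. It then declined to 28.6% at the A end, where A held 57.2%. B led 98.99% of windows in the fifth class, 0.00% at the C end and 2.254% at the A end. The A to C ratio and the contrast are both built from A and C and the shares add to 100%, so these values are a description of how the libraries fit together and not independent measures.

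**Figure D2:**
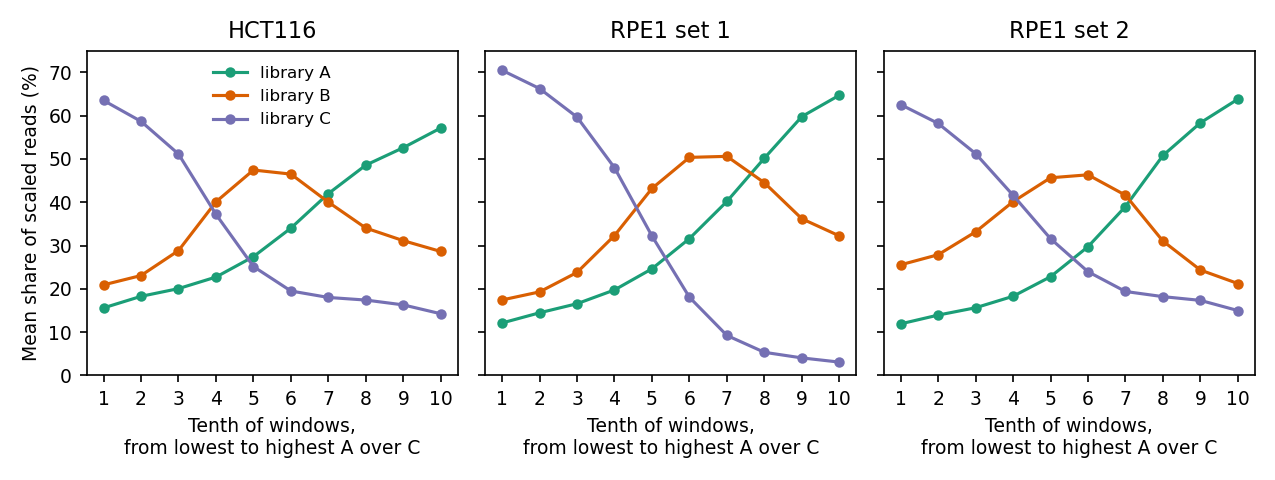
Mean share of scaled reads (y axis, %) held by libraries A, B and C in 10 equal classes of windows ordered from the lowest to the highest ratio of A to C (x axis), for HCT116 and the RPE1 sets. B forms a hump in every set, which reaches 47.4% in the fifth class of HCT116 and is lower at the C end than at the A end there.

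The ends of this order were not equal in HCT116. The mean contrast was -0.93 ± 0.32 (SD over 5369 windows) at the C end and -0.34 ± 0.44 (SD over 5368 windows) at the A end, and 86.0% of windows at the C end were low against 31.1% at the A end. RPE1 set 1 leaned the same way, with 17.4% of reads in B at the C end and 32.2% at the A end. RPE1 set 2 leaned the other way, with 25.5% and 21.2%. The sets of 1 line thus differed in this respect, and the HCT116 values lay between them.

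Windows in which A and C were within 1.5-fold of each other numbered 7951, or 14.8% of the HCT116 windows. B held 46.5% ± 5.12 (SD over windows) of their reads and 31.9% of the reads of all other windows. It led 97.2% of them, and 9 of them had a low contrast. The RPE1 sets had much the same level in such windows, at 46.2% and 46.5%.

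High windows lay together in runs. Neighbouring windows had contrasts that correlated at r = 0.933, and this fell to 0.531 at 500 kb and 0.140 at 2000 kb. The ratio of A to C held on over longer distances, at 0.961, 0.750 and 0.259. In HCT116, 1063 runs of at least 5 adjacent high windows held 11434 windows, or 81.0% of the high ones, and covered 572 Mb. Their median length was 450 kb, 91 were at least 1 Mb long, and A exceeded C in 966 of them. A was also above C in most kept HCT116 windows. In the fifth class from the C end, the mean log2 of A over C was already 0.13. The exact share of kept windows with A above C was not worked out. The count of 966 is therefore not shown to be particular to high runs.

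The libraries beside the high runs were read from the 10 windows, 500 kb, on each side. Of the runs with full flanks, 586, or 59.5%, had more A on one side and more C on the other. Another 275, or 27.9%, had A above C on both sides, and 124, or 12.6%, had C above A on both sides, while 78 runs had no full flanks. How often other stretches of like length have such flanks was not worked out, so this split is not shown to be particular to high runs. B held close to the same share in these kinds, with means of 48.3, 48.7 and 48.4%. The median length was 550 kb with A on both sides, 525 kb with C on both sides and 400 kb between A and C. In RPE1 the share of runs lying between A and C was 49.8% in set 1 and 51.1% in set 2, below the HCT116 value by more than the sets differed.

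The places where A gave way to C describe the same relation along the chromosomes. A and C are about level there by definition, so these values are not independent of those above. A switch was a point at which at least 5 windows with A above C met at least 5 windows with C above A, and HCT116 had 736. With 20 kb windows, and the minimum length of 250 kb rounded up to whole windows, 137 were found. More unbroken windows were then needed on each side. The mean share of B over the windows at the switch was 47.2% ± 3.597 (SD over switches), with a range of 29.8 to 58.1%. B led both adjoining windows at 721 switches, or 98.0%, and the contrast there was at least 1.5-fold at 657, or 89.3%, and below 0 at 3. B peaked on the A side, 75 kb from the switch, at 48.8% of reads, and had 45.9% at 25 kb on the C side. By 975 kb it was at 36.3% on the A side and at 32.3% on the C side. RPE1 had more switches, 1251 and 1254, with much the same share of B, 47.1% in both sets. The RPE1 counts were not worked out at another window size or at equal depth. A kept window had a median of 450 reads in HCT116, against 591 and 885 in the RPE1 sets. Whether the lines differ in the number of switches was not tested.

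**Figure D3:**
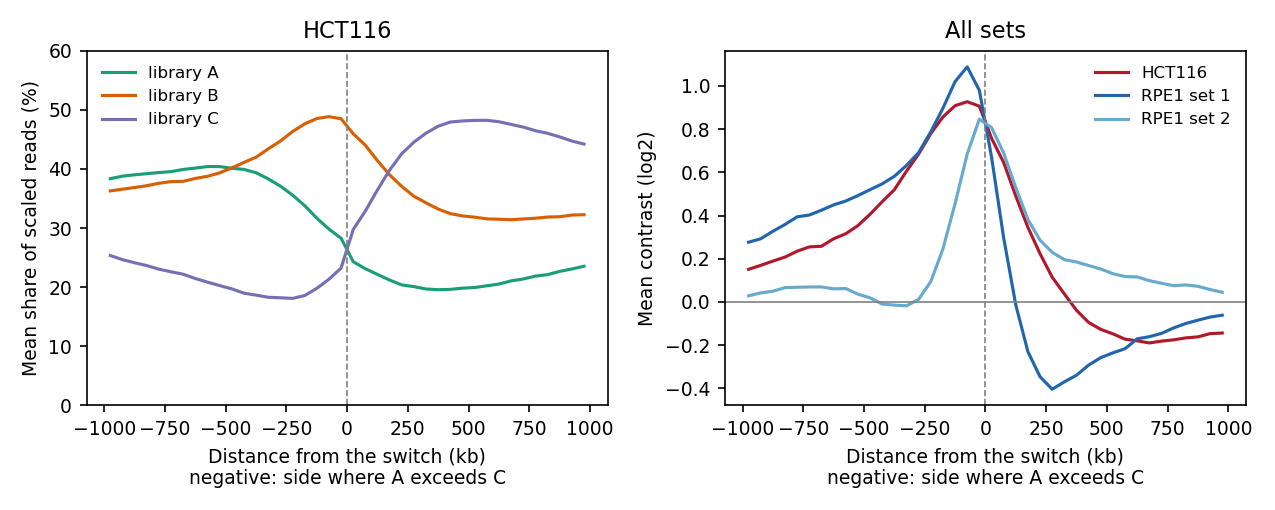
Left, mean share of scaled reads (%) of libraries A, B and C in HCT116 by distance in kb from 736 switches between windows with A above C (negative side) and windows with C above A. Right, mean contrast (log2) at the switches of each set. Every profile is highest on the A side, at 0.93 in HCT116, 1.09 in RPE1 set 1 and 0.85 in RPE1 set 2. In the same order the values are 0.41, 0.52 and 0.02 at -475 kb, and 0.11, -0.40 and 0.23 at 275 kb.

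The longest run of high windows in HCT116 was on chromosome 10, from 29000001 to 31700000 (hg19, as are all positions here). It had 7952 scaled reads in A, 13094 in B and 4131 in C, so B held 52.0% (51.4 to 52.6%). All of its 54 windows were high by construction, with a mean contrast of 1.12 and a lowest value of 0.69. C was low throughout and A was the second library, and A was above C on both sides. RPE1 set 1 was close to HCT116 there, with a mean contrast of 1.09 and 48 high windows, and RPE1 set 2 was lower, at 0.54 with 30 high windows.

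The second run, on chromosome 2 from 234550001 to 236850000, had 6507, 10733 and 3277 scaled reads in A, B and C. B held 52.3% (51.6 to 53.0%) there, and 44.3% and 38.5% in the RPE1 sets, where A held 40.2% and 39.2%. The third, on chromosome 6 from 14150001 to 16200000, had 5307, 9893 and 3980 scaled reads, with 51.6% (50.9 to 52.3%) in B against 40.5% and 44.8% in RPE1. These regions were chosen for a high B in HCT116, which favours a higher share there than in RPE1, so the gap between the lines is a description only.

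The fourth run, on chromosome 1 from 197100001 to 199050000, was the only one of the 5 with C above A on both sides. Its libraries had 4015, 7444 and 3951 scaled reads, so A and C were level and B held 48.3% (47.5 to 49.1%). RPE1 had 53.2% and 46.3% of reads in B there, on either side of HCT116. The fifth, on chromosome 12 from 13700001 to 15600000, had 4813, 8224 and 3744 scaled reads and 49.0% (48.3 to 49.8%) in B. RPE1 differed most from HCT116 here, with C leading at 54.3% and 46.2% of reads and mean contrasts of -0.47 and 0.12 against 0.93.

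**Figure D4:**
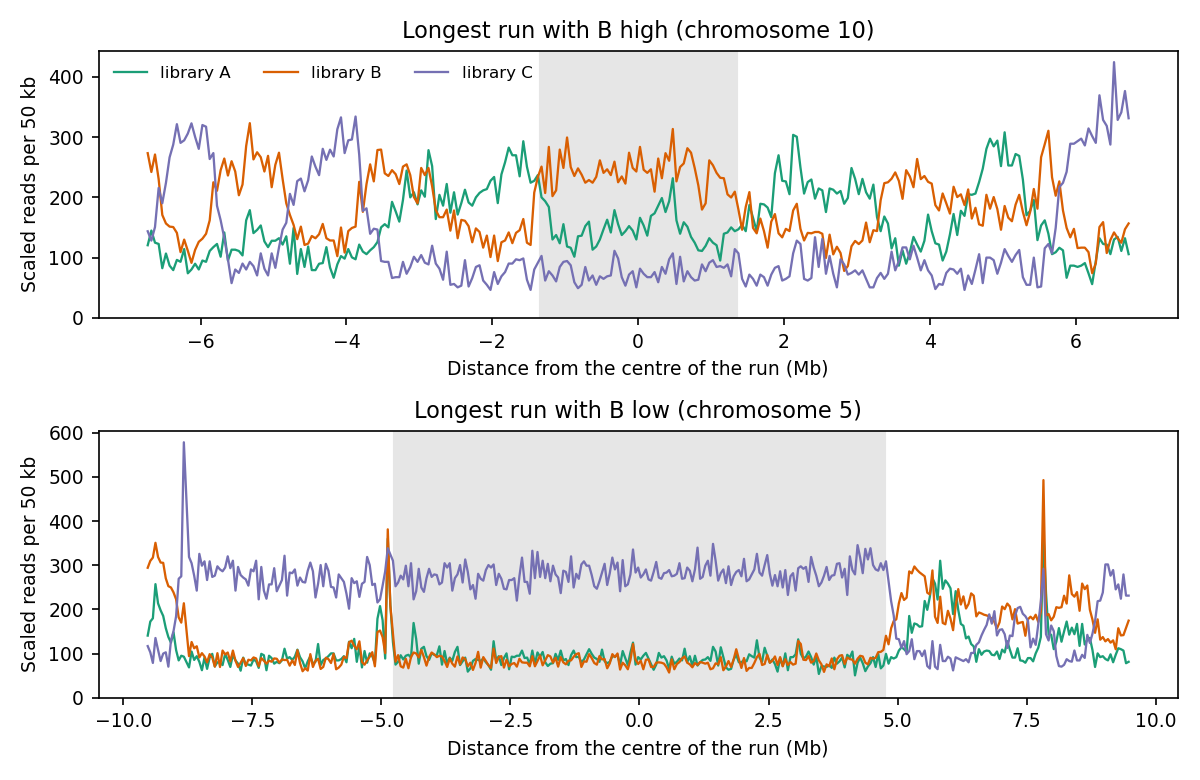
Scaled reads per 50 kb window (y axis) of libraries A, B and C in HCT116 around the longest run with B high (top, chromosome 10) and the longest run with B low (bottom, chromosome 5), by distance in Mb from the centre of the run, which is shaded. In the top panel B lies above A and C throughout the shaded 2.70 Mb, and in the bottom panel C lies above A and B, which run together, over 9.50 Mb.

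With equal totals and the 1.5-fold rule, runs of low windows were fewer and longer than high runs, and most low runs were led by C. There were 531 in HCT116, with 9928 windows and a median length of 500 kb. C exceeded A in 368 of them, which held 8721 windows at a median of 700 kb, and A exceeded C in 163, which held 1207 windows at a median of 300 kb. At least 2 Mb was reached by 63 low runs and by 3 high runs. The RPE1 sets differed strongly from each other in this split: A exceeded C in 17 of 622 low runs of set 1 and in 579 of 798 of set 2. The HCT116 split lay between them. Which kind of run was more frequent in HCT116 depended on the processing. Libraries scaled to equal medians gave 304 high and 983 low runs, and the 2-fold rule gave 184 high and 286 low runs.

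The 5 longest low runs were all led by C, and A and B were nearly level in each. The first, on chromosome 5 from 21600001 to 31100000, had 16819 scaled reads in A, 15846 in B and 53417 in C. B held 18.4% (18.2 to 18.6%) and the mean contrast was -1.15. The windows just outside it, at -0.58 and -0.54, fell short of the rule by a little. RPE1 had 19.7% and 27.1% of reads in B there.

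The second, on chromosome 4 from 59800001 to 67200000, had 12594, 12079 and 41230 scaled reads, with 18.3% (18.1 to 18.6%) in B. The third, on chromosome 8 from 111150001 to 117150000, had 14026, 13925 and 50171, with 17.8% (17.6 to 18.1%) in B. In RPE1 B held far more of the reads of this region, 30.1% in set 1 and 39.6% in set 2, and the mean contrasts were -0.19 and 0.38 against -1.21 in HCT116. This was the long low run in which the lines stood farthest apart.

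The fourth, on chromosome 16 from 59600001 to 65550000, had 9823, 10608 and 34844 scaled reads and 19.2% (18.9 to 19.5%) in B. RPE1 set 1 matched it closely, at 19.4%, and set 2 had 28.5%. The fifth, on chromosome 14 from 82550001 to 88400000, had 9639, 10117 and 34136 scaled reads and 18.8% (18.5 to 19.1%) in B, against 17.6% and 25.7% in RPE1. Against A alone the contrast of these 5 regions was -0.08, -0.06, -0.01, 0.11 and 0.07, so B stood about level with A and below C.

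Low runs with A above C were short. The 3 longest, singled out after their values were seen, were on chromosome 1 from 94350001 to 95400000, on chromosome 9 from 21250001 to 22250000 and on chromosome 4 from 74950001 to 75850000. A held 60.8, 61.3 and 61.9% of their reads, B 20.6, 20.2 and 20.6%, and C 18.6, 18.5 and 17.5%. Here B and C were nearly level. The chromosome 4 region differed between the lines, since B led it in both RPE1 sets with 52.8% and 46.9% of reads. Its mean contrast was -0.95 in HCT116 and 1.21 and 0.84 in RPE1. It too was chosen for a low B in HCT116, so the gap is a description only.

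The mean contrast of an autosome ran from -0.24 on chromosome 21 and -0.21 on chromosome 17 to 0.11 on chromosome 12 and 0.19 on chromosome 6. Chromosome 6 had 37.6% high and 17.7% low windows, and B led 46.2% of it. Chromosomes 21 and 17 were low in different ways. C led 51.1% of chromosome 21 and A led 72.4% of chromosome 17, and B led 20.8% and 15.9% of them. HCT116 lay above both RPE1 sets on 6 of the 22 autosomes and below both on 8. On 10 autosomes it was farther from the RPE1 mean than the RPE1 sets were from each other. On 0 autosomes was it farther from that mean than the largest gap between the RPE1 sets. The counts that sets of 1 line would give were not worked out, so these counts do not show a difference between the lines. The RPE1 sets were up to 0.49 apart, on chromosome 17, where they had 0.01 in set 1 and -0.48 in set 2. The sign of these means depended on the scaling, since 10 autosomes lay above 0 here and 0 with libraries scaled to equal medians, while their order was nearly kept (rho 0.971 over 22 autosomes).

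**Figure D5:**
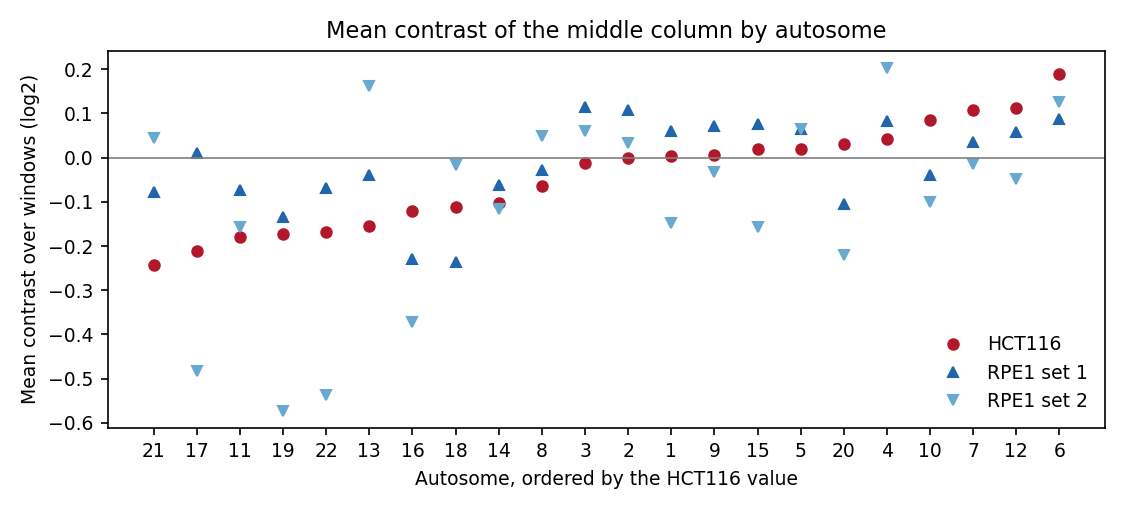
Mean contrast over windows (y axis, log2) of each autosome in HCT116 (circles) and the RPE1 sets (triangles), ordered by the HCT116 value. HCT116 means run from -0.24 to 0.19, and the RPE1 sets are up to 0.49 apart on the same autosome.

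HCT116 was then set against RPE1, where the difference between the sets is the only replicate error. The contrast correlated at r = 0.451 and 0.458 between HCT116 and the RPE1 sets, and at 0.617 between the RPE1 sets, over windows. Spearman's rho was 0.451 and 0.475 against 0.685. The SD of the difference was 0.86 and 0.77 against 0.74 within RPE1. High windows made up 31.6% of RPE1 set 1 and 25.0% of RPE1 set 2, and low windows 28.0% and 24.4%. Of the HCT116 high windows, 49.1% were high in RPE1 set 1 and 44.7% in set 2, and these made up 40.8% and 46.9% of the high windows of those sets. In all 3 sets, 4918 windows were high and 3573 were low, or 9.16% and 6.66% of all kept windows. The overlap to be looked for from the shares called in each set was not worked out.

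Calls in opposite directions were more frequent between the lines than within RPE1. Of the 53686 kept windows, 48 were high in 1 RPE1 set and low in the other. Between HCT116 and RPE1 sets 1 and 2, 3257 and 1999 windows were called in opposite directions. HCT116 was high in 1960 windows that were low in RPE1 set 1 and in 676 that were low in set 2, and low in 1297 and 1323 windows that were high there. The leading library was the same in 69.0% and 70.6% of windows between the lines and in 89.3% between the RPE1 sets. These differences were larger than those between the RPE1 sets.

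HCT116 exceeded both RPE1 sets by at least 1 on the log2 scale in 1871 windows, or 3.49%, and lay below both by as much in 2871, or 5.35%. Taken pair by pair and in either direction, 23.3% of windows were at least 1 apart between HCT116 and RPE1 set 1, 19.5% between HCT116 and set 2, and 17.2% between the RPE1 sets. The last share was 8.76% with B against A alone and 46.1% with B against C alone. The pairwise shares between the lines were not worked out under those settings. In the windows where HCT116 was above, B led 95.6% in HCT116, and C had led 88.7% and 88.5% in the RPE1 sets. In the windows where it was below, B had led 81.4% and 87.6% in the RPE1 sets, while in HCT116 C led 70.4% and A 29.4%. So a rise of B in HCT116 was mostly met by C in RPE1, and a fall of B by C or A in HCT116.

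Leaders were also compared in all windows with the same leader in both RPE1 sets. Of 14078 windows led by B in both RPE1 sets, HCT116 had 57.1% led by B, 24.2% by A and 18.7% by C. Of 18972 windows led by C in both RPE1 sets, 24.5% were led by B in HCT116 and 1.56% by A. Of 14865 led by A in both, 14.0% were led by B and 0.91% by C. Exchanges between A and C were thus rare beside exchanges with B.

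The longest stretch with HCT116 above both RPE1 sets, singled out after its values were seen like those that follow, was on chromosome 5 from 174000001 to 174800000. B held 49.9% of reads in HCT116 (48.8 to 51.0%) and 18.1% and 26.0% in RPE1, where C held 62.7% and 57.7%. On chromosome 10, 87150001 to 87900000 had 48.2% in B against 14.9% and 23.8%, and 112950001 to 113700000 had 46.1% against 15.6% and 25.9%. The stretches were built from windows in which HCT116 exceeds both RPE1 sets, so the direction and the least size of these gaps were set by the rule.

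The longest stretch with HCT116 below was on chromosome 18 from 25150001 to 26850000. B held 20.5% of reads in HCT116 (19.9 to 21.1%), with 61.6% in C, and 49.9% and 49.4% in RPE1. On chromosome 3, 78900001 to 80400000 had 18.5% against 44.4% and 47.1%. On chromosome 8, 115850001 to 117300000 had 19.2% against 45.2% and 49.0%. The chromosome 8 stretch lies mostly within the third long low run given above, so it is not a separate region. The direction and the least size of these gaps too were set by the way the stretches were chosen.

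Read depth differs between the lines in places, and HCT116 had at least 1.3 times the RPE1 level over 1 Mb in 2120 windows. The mean contrast there was -0.11 ± 0.76 (SD over windows) in HCT116, against -0.01 ± 0.71 in the other 51566 windows. In these windows 23.3% were high and 31.8% low, against 26.4% and 24.7% elsewhere. RPE1 had mean contrasts of 0.08 and 0.11 in the same windows and 0.02 and -0.05 elsewhere. The part of depth in these differences was not tested.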

How the data were processed

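The values in the tables deposited by the authors are unscaled read counts, 1 for each bin of mostly 1 kb. The submitters' processing notes name hg19, bedtools 2.25, SAMtools 1.2 and Bowtie2 without saying what each did, and the labels' table names point to removal of duplicate reads. Settings of the mapping are not given in the sources used here. Each table was tied to its set by the table name in the labels, and its 3 columns to no fraction. Bins were summed to 50 kb windows, and a window was kept if 25 or more of its bins had reads and each set had 30 reads or more in it. Each library was scaled to the mean total of its set, and 1 was added before log2. High and low mean 1.5-fold or more. The 5 longest high and low runs were named, with the 2 highest and 2 lowest autosomes. No test was run, as each column is 1 library, and the labels do not state if the cultures behind the RPE1 sets were separate. The steps were tested on simulated data. The members, regions and settings were chosen with earlier results of these data known. Gene names and sequences were not used here, because the reference tables at hand are on another build. Python 3.11.15, numpy 2.4.6, pandas 2.3.3, scipy 1.17.1 and matplotlib 3.10.9 were used.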

Additional observations from a re-analysis of the deposited data

Results flagged for a closer look

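These results were flagged because HCT116 lay on one side of 0 and both RPE1 sets on the other. The place of 0 depends on the scaling, and the HCT116 means of chromosomes 2 and 3 were close to 0. The flag alone does not show that a chromosome differs between the lines. With 1 HCT116 set and 2 RPE1 sets the difference was not tested. The chromosome 4 region from 74950001 to 75850000 had a mean contrast of -0.95 in HCT116, against 1.21 in RPE1 set 1 and 0.84 in RPE1 set 2. It had been chosen for a low B in HCT116, which favours such a gap. Chromosome 10 had a mean of 0.086 in HCT116, and -0.04 and -0.10 in RPE1. Chromosome 20 had 0.030, and -0.10 and -0.22 in RPE1. Chromosome 3 had -0.011, and 0.11 and 0.06 in RPE1. Chromosome 2 had -0.00086, and 0.11 and 0.03 in RPE1. With median scaling the means of chromosomes 10 and 20 turned negative, while those of chromosomes 2 and 3 stayed negative and turned positive under other settings, given with the dependence on the processing.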

How the results depend on the processing

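Of 169 alternative values for shares and counts, 127 stayed within 1.5 times and 42 moved. Median scaling, which shifts every contrast of HCT116 down, gave 10.5% high and 41.4% low HCT116 windows, 10.6 and 46.2% in RPE1 set 1, 10.6 and 37.4% in RPE1 set 2, 304 high and 983 low runs, 44.6% high switches and 33.6% of windows apart between the RPE1 sets. The 2-fold rule gave 7.75 and 9.33%, 16.0 and 18.6%, and 5.82 and 11.3% in the same order, with 184 high and 286 low runs and 19.97% high switches. The lowest fold rule tried gave 37.8% low in HCT116, 37.2% in RPE1 set 2 and 951 low runs. These follow from the rule itself. The mean of log2 outer columns gave 14.6% low in HCT116, 53.5% high in RPE1 set 1, 13.1% low in RPE1 set 2, 1.64% of windows with HCT116 above RPE1 and 34.3% apart between the RPE1 sets. B against A alone gave 17.5% low in RPE1 set 1, 54.4% high in RPE1 set 2, 1.97% with HCT116 above and 8.76% apart. B against C alone gave 49.7% high in HCT116, 53.6% in RPE1 set 1, 9.90% with HCT116 above and 46.1% apart. Switches numbered 137 with 20 kb windows, a count that is not among the 169. High runs numbered 651 with 20 kb windows and 466 with at least 10 windows, and low runs 267 with at least 10 windows. With each RPE1 set left out, HCT116 was above in 11.01 to 12.0% and below in 8.51 to 11.3% of windows, which could only rise, as 1 set then had to be passed.

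In sign, B against A alone turned the long low runs on chromosomes 16 and 14 (0.11 and 0.074) and the chromosome 18, 3 and 8 stretches (0.20, 0.014 and 0.20). B against C alone turned the low runs with A above C (0.17, 0.15 and 0.26). The chromosome 2 mean became 0.0014 with pseudocount 10, 0.17 with log2 outer means, 0.0026 without the filter, 0.13 against A and 0.21 against C. The chromosome 3 mean became 0.15, 0.15 and 0.16 with log2 outer means, against A and against C. The chromosome 10 and 20 means became -0.27 and -0.32 with median scaling, and chromosome 20 -0.037 against A. The HCT116 median became 0.15, 0.25 and 0.58 with log2 outer means, against A and against C. The cause of these changes was not tested. Thinning to 6122904 reads moved none of the shares and counts past 1.5 times. No paired analysis was possible because each column is 1 library and no result came from a test.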
